A study of Mus musculus with 10 samples.

Results

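The genes described are 55 genes of mitosis, the spindle and the kinetochore, taken by name: every probe whose gene symbol was a member was read out in the left ventricle of mice after transverse aortic banding (TAB) or sham surgery. Of the 55 genes, 53 had a probe, with 65 probes in all, and 45 kept a probe through the intensity filter, among 16113 measured genes. When a cell enters mitosis, cyclins A and B activate the kinase CDK1, condensins and topoisomerase II compact and untangle the chromosomes, and kinesins build the spindle, whose microtubules attach to the kinetochore of each centromere. The spindle checkpoint holds the cell until every kinetochore is attached, after which securin is degraded, separase cuts cohesin, and the centralspindlin complex directs the division of the cell. Adult cardiomyocytes divide rarely, and transcripts of these genes are usually low in the adult ventricle.

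The mice were male C57BL/6J, 8 weeks old, and the arrays held RNA of the left ventricle taken 3, 5, 7, 14 or 28 days after TAB, which loads the ventricle with pressure by narrowing the aortic arch, or after a sham operation. Each operation and day had 1 sample, 10 in all, hybridised to its own single-colour oligonucleotide array, and the number of mice behind a sample was not stated in the sources used here. A label of the day-14 TAB sample gives a time 1 day later than its title, whose day was used. No p-value is therefore given for a single day, and the 5 days served as the replicates of an average TAB effect. The median raw intensity of an array ranged from 34 to 57, and 40.2% to 47.3% of its spots were flagged as not found. Levels below are log2 normalized intensities of a gene's probe, and are compared between samples and not between genes. In tissue RNA, fewer dividing cells and less RNA per dividing cell cannot be told apart.

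Averaged over the 5 days, 22 of the 45 measured members rose in TAB (limma, adjusted p below 0.05 over all 16113 genes), against 9.19% of all genes, and none fell, against 7.87%. At an unadjusted p of 0.05 the counts were 31 higher, against 17.5% of all genes, and 1 lower, against 18.2%. The median of the mean log2 TAB/sham ratio was 1.32 over the members and -0.03 over all measured genes, and the mean ratio was above 0 for 40 of 45 members. The size of the ratios rested on how low intensities were treated: with 50 added to every intensity before log2 the members' median was 0.76, with all 22 calls kept. In 27 members every TAB sample lay above every sham sample, as in 9.99% of all genes. Over all genes the calls were 1481 higher and 1268 lower, a split that became 1782 and 855 with median scaling alone and 1871 and 950 with quantiles taken within each operation; the 22 members kept their call under both. With probes under 1 set to 1 in place of removed, 8 of the 22 kept it, and 9 of 53 measured members passed, against 2.3% of all genes. The calls were lost when a day of the first week was left out: without day 3 or without day 7 no member passed (lowest adjusted p 0.0563 and 0.0579 by limma), and without day 5 only Hmmr did, while all genes fell to 29, 20 and 86 calls of a higher level. Without day 14, 8 members passed (565 higher calls over all genes), and without day 28, 26 (1482). The members' median mean log2 ratio was 1.16, 0.98, 1.41, 1.4 and 1.58 without day 3, 5, 7, 14 and 28 in turn. In the same order 29, 30, 33, 29 and 31 members were higher at an unadjusted limma p of 0.05. The share of all genes at that threshold was 17.5% with all days and was not counted with a day left out.

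Found and not found spots were split between the operations. Of the 45 members, 16 were found on all 10 arrays, 10 were found on at least 1 TAB array and on no sham array (2.94% of all genes), and Melk was found on no array. Members were found on 36, 41, 37, 33 and 36 of 45 spots in TAB on days 3, 5, 7, 14 and 28, and on 31, 21, 22, 22 and 28 in sham. Over all genes the share found ran from 71.6% to 79.7% in TAB and from 73.8% to 80.2% in sham. For the 10 found in TAB and on no sham array, all but Mki67, the ratio of that probe is also given as a bound, with each sham level raised to the lowest found level of its array where it lay lower, over the 5 days where all TAB spots were found and otherwise for the days of the found TAB spots. Some sham spots not found read above that level, such as Plk1 on day 5 (4.73 against 2.73), and kept their own reading. A fold given as at least therefore holds only if a spot not found held no more than the level used, which was not tested. With all levels not found raised in the same way, in TAB and in sham, the median of the mean log2 ratio was 1.25. Among the 16 members found on every array, 6 rose and none fell, beside 1102 and 1018 of the 10535 genes found on every array, and their median mean log2 ratio was 1.13.

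**Figure D1:**
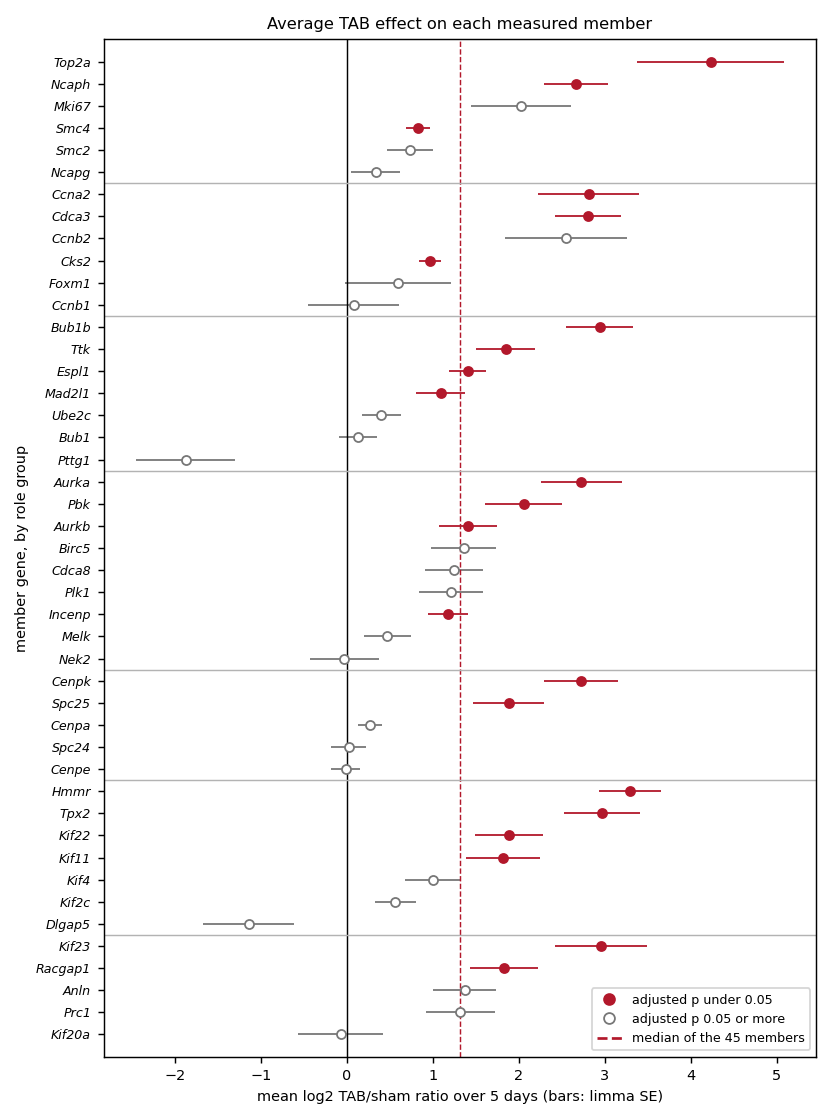
Mean log2 TAB/sham ratio over the 5 days (x axis) for each of the 45 measured members (y axis, in role groups divided by lines, in the order chromosome structure, cyclins, checkpoint, kinases, kinetochore, kinesins and cytokinesis), with the limma SE as bars. Filled points passed adjusted p 0.05; 40 of 45 points lie to the right of 0, and the dashed line marks the members' median of 1.32.

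The promoters of a few members are shown first because genes of late cell cycle are known to share the CHR element (TTTGAA or TTCGAA), read by the DREAM and MuvB complexes, and CCAAT boxes, bound by NF-Y. RefSeq promoters (GRCm38.p6, 250 bases before to 50 after the start) were listed for 44 of the 55 genes, 48 starts in all. TTTGAA, on either strand, was in 68.8% of the 48 and in 17.9% of the 32851 promoters of all genes; TTCGAA was in 6.25% and 1.56%, CCAAT in 79.2% and 37.4%, and TTTGAA together with CCAAT in 62.5% and 6.95%. CCAAT and TTTGAA can share 1 base at their ends and were counted separately, and a match is a description of the window and not of binding. Below are the 120 bases before the start, 5′ to 3′ on the gene's strand, with matches on either strand in capitals. They are from members with large and small TAB/sham ratios, chosen after the values were known.
Top2a (chr11:99024190-99024309, - strand): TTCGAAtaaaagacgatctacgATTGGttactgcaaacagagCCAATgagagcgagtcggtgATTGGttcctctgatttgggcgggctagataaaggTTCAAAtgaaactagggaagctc
Hmmr (chr11:40733438-40733557, - strand): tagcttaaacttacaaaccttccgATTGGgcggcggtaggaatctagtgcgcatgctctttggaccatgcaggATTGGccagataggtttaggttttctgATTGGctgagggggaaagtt
Mki67 (chr7:135716380-135716499, - strand): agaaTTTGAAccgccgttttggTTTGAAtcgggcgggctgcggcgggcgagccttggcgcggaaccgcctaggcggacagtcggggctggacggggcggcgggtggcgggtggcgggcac
Kif22 (chr7:127042421-127042540, - strand): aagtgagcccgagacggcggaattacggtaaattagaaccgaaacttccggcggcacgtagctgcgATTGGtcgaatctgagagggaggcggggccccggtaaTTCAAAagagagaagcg
Espl1 (chr15:102296173-102296292, + strand): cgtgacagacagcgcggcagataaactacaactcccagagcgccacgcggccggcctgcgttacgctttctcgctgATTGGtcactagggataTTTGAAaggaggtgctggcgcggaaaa
Ube2c (chr2:164769809-164769928, + strand): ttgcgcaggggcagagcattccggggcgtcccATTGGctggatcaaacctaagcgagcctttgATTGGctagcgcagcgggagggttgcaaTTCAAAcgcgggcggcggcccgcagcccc
Ccnb1 (chr13:100786487-100786606, - strand): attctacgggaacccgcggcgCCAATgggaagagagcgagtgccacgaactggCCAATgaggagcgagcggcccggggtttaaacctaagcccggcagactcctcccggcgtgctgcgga
Pttg1 (chr11:43425982-43426101, - strand): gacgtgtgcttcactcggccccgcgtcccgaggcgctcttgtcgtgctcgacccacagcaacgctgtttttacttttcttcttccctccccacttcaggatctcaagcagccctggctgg
Within these bases Top2a holds 1 match each of TTTGAA and the TTCGAA form, beside 3 of CCAAT, Hmmr 3 CCAAT matches, and Mki67 TTTGAA in 2 places. Kif22 and Espl1 have 1 match of each, and Ube2c, whose level did not pass the test, has TTTGAA and 2 CCAAT matches. Ccnb1 has 2 CCAAT matches and no TTTGAA, and the Pttg1 stretch has no match. Of the 35 measured members with a listed promoter, 24 held TTTGAA in the full window and 11 did not. The median mean log2 ratio was 1.82 in the former, from 0.27 to 4.23, with 12 called, and 0.47 in the latter, from -1.87 to 2.72, with 4 called.

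Among the genes of chromosome structure and proliferation, 3 of 6 rose. Top2a, topoisomerase IIα, which removes tangles between sister chromatids, had the largest mean ratio of all members. Its TAB levels were 8.29, 8.95, 7.05, 6.38 and 6.01 on days 3, 5, 7, 14 and 28, and its sham levels 3.57, 2.19, 3.69, 0.71 and 5.36. It was found on all 5 TAB arrays and only on day 28 in sham, and the TAB and sham levels did not overlap. The mean log2 ratio was 4.23 ± 0.85 (SE over the 5 days here and below, limma adjusted p 0.0291). Its size rests on sham spots not found on 4 days: on day 14 TAB was 50.8-fold above sham as read and at least 14.1-fold as a bound, and with 50 added the mean log2 ratio was 1.82, still the largest (limma adjusted p 0.0141). Ncaph, the kleisin of condensin I, stood at 6.91, 7.47, 6.23, 6.10 and 5.49 in TAB and 4.05, 3.42, 3.83, 3.32 and 4.26 in sham, again without overlap (2.67 ± 0.38, limma adjusted p 0.0172). Its sham spot too was found on day 28 only. Mki67, which coats mitotic chromosomes and gives the Ki-67 proliferation stain, measured 6.41, 6.48, 5.54, 4.08 and 3.98 in TAB and 2.34, 3.28, 3.69, 3.46 and 3.59 in sham. Every TAB level was above every sham level, with a wide gap on days 3 and 5 and a narrow one on days 14 and 28, when its spot was found in neither operation. Its mean log2 ratio of 2.03 ± 0.58 did not pass (limma adjusted p 0.0614), and no bound is given for it because its other probe, found in both operations on day 3, read a smaller log2 ratio that day (2.17 against 4.07). With the brighter of its probes standing for the gene the mean log2 ratio was 1.95 and passed (limma adjusted p 0.0247), as it did with the mean of its probes (1.96, adjusted p 0.0253) and with 50 added (1.17, adjusted p 0.013). The condensin ATPase subunit Smc4 rose by a smaller step (0.82 ± 0.14, limma adjusted p 0.0226), its partner Smc2 had 0.74 ± 0.26 (adjusted p 0.102), and the condensin subunit Ncapg had the smallest ratio of the group. Ncapg levels were 4.74, 5.58, 4.01, 3.60 and 4.94 in TAB and 5.26, 4.24, 3.54, 3.91 and 4.24 in sham (0.34 ± 0.29). The ranges overlapped, although the day-5 TAB level lay above every sham level.

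Of the 8 cyclins and CDK1 switches, 6 were measured and 3 rose. Ccna2, the cyclin of S phase and mitotic entry, was at 8.40, 9.08, 7.12, 6.79 and 6.11 in TAB and 5.61, 4.73, 5.72, 2.27 and 5.10 in sham. All TAB levels were above all sham levels, and on day 14, when the sham spot was low and not found, TAB was at least 18.8-fold higher as a bound (2.81 ± 0.59, limma adjusted p 0.0315). Cdca3, which helps degrade the CDK1 inhibitor Wee1, had TAB levels of 7.48, 7.94, 6.30, 5.80 and 5.67 against sham levels of 4.09, 3.95, 3.38, 3.32 and 4.43 (2.80 ± 0.39, limma adjusted p 0.016). Its sham spot was found on day 28 only. Cks2, a CDK-binding protein, was found on 2 TAB arrays and no sham array and rose by 0.97 ± 0.13 (limma adjusted p 0.0155), with bounds of at least 2.52-fold on day 5 and 1.45-fold on day 28. Ccnb2, cyclin B2, was found on the TAB arrays of days 3, 5 and 7 and on no sham array, with bounds of at least 16.0-fold, 21.7-fold and 3.41-fold on those days. Its log2 ratios as read were 4.0, 4.69, 2.56 and 1.83 on days 3 to 14 and -0.32 on day 28, and their mean of 2.55 ± 0.71 did not pass (limma adjusted p 0.057). Foxm1, the transcription factor of the late cell cycle, was found only on the day-5 TAB array, at least 7.04-fold above sham. Its levels were 3.46, 5.75, 0.60, 2.94 and 2.37 in TAB and 1.67, 2.93, 1.96, 3.32 and 2.24 in sham, so that the TAB levels of days 3 and 5 lay above every sham level, the former on a spot found in neither operation, and the others among them or below (0.60 ± 0.61, limma adjusted p 0.527). Ccnb1, cyclin B1, was found on all 10 arrays, at 7.95, 7.99, 7.60, 7.75 and 7.60 in TAB and 8.16, 8.50, 8.43, 8.42 and 4.98 in sham. TAB lay under sham on days 3, 5, 7 and 14 and far above it on day 28, where the sham level stood apart from the other 4 sham levels. Its mean log2 ratio was 0.08 ± 0.53 (limma adjusted p 0.933), and -0.56 without day 28 (adjusted p 0.0591).

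The mitotic kinases and the chromosomal passenger complex were all measured, and 4 of the 9 rose. Aurka, the centrosome kinase Aurora A, had TAB levels of 6.78, 7.04, 5.63, 5.56 and 5.00 and sham levels of 3.57, 2.49, 2.84, 3.71 and 3.75. It was found on every TAB array and no sham array, at least 5.59-fold higher in TAB (2.73 ± 0.47, limma adjusted p 0.0227). Pbk, a kinase active in mitosis, was found on all 10 arrays with 8.39, 9.12, 7.13, 6.76 and 6.73 in TAB and 5.64, 5.27, 5.55, 5.54 and 5.83 in sham, without overlap (2.06 ± 0.45, limma adjusted p 0.0336). Of the passenger complex, the kinase Aurkb (1.41 ± 0.33, limma adjusted p 0.0395) and its scaffold Incenp (1.17 ± 0.23, adjusted p 0.0276) rose. The other passengers, Birc5 (survivin, 1.36 ± 0.38, limma adjusted p 0.0562) and Cdca8 (borealin, 1.25 ± 0.34, adjusted p 0.0529), just missed the threshold, although all 4 genes of the complex had every TAB level above every sham level. Plk1, the polo-like kinase of mitotic entry and exit, had 1.21 ± 0.38 (limma adjusted p 0.0729), also without overlap. Melk, found nowhere, and the centrosome kinase Nek2 did not pass. Nek2 was at 5.19, 5.33, 4.90, 5.46 and 3.95 in TAB and 5.79, 4.86, 4.31, 4.42 and 5.59 in sham, with the operations mixed (-0.03 ± 0.40).

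Of the 8 checkpoint and anaphase genes, 7 were measured and 4 rose. Bub1b, the checkpoint kinase BubR1, had 6.17, 7.11, 5.37, 5.43 and 5.30 in TAB and 2.34, 2.93, 3.54, 2.56 and 3.30 in sham. It was found on every TAB array and on no sham array, at least 7.16-fold higher (2.94 ± 0.39, limma adjusted p 0.0154). Ttk, the checkpoint kinase Mps1, was at 5.27, 5.80, 4.01, 3.31 and 3.65 in TAB and 3.11, 2.49, 3.04, 1.93 and 2.24 in sham, found only on the day-5 TAB array (1.85 ± 0.34, limma adjusted p 0.0254; at least 8.37-fold on that day). The protease separase, Espl1, found in sham on day 3 only, rose by 1.41 ± 0.21 (limma adjusted p 0.019). The checkpoint protein Mad2l1, found on all 10 arrays, rose by 1.09 ± 0.28 (limma adjusted p 0.0473). Ube2c, the ubiquitin-conjugating enzyme of the anaphase-promoting complex, had log2 ratios of 0.89 and 1.15 on days 3 and 5 and between -0.20 and 0.10 later (0.40 ± 0.23, limma adjusted p 0.256). Bub1, whose spot was found on 1 sham array alone, had 0.13 ± 0.22. Pttg1, securin, went the other way: 0.78, 3.66, 4.01, 4.08 and 4.61 in TAB and 5.31, 5.30, 4.31, 5.66 and 5.93 in sham. Every day TAB was under sham (-1.87 ± 0.58, limma adjusted p 0.0717), though the spot was found on only 1 TAB array. A brighter Pttg1 probe, found on all 10 arrays, read 10.46, 10.79, 11.26, 11.26 and 11.64 in TAB and 12, 11.81, 11.90, 12.06 and 12.05 in sham. All its TAB levels lay under all its sham levels, and with the brightest probe standing for each gene the mean log2 ratio was -0.88 with a limma adjusted p of 0.0276.

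Of the 8 kinetochore genes, 5 were measured and 2 rose. Cenpk, of the inner kinetochore, was at 7.65, 8.27, 7.31, 6.72 and 5.98 in TAB and 4.98, 4.32, 3.83, 4.09 and 5.10 in sham (2.72 ± 0.43, limma adjusted p 0.0207). Spc25, of the microtubule-binding NDC80 complex, had 6.96, 7.63, 6.14, 6.09 and 5.67 in TAB and 4.15, 4.32, 4.74, 4.86 and 4.98 in sham (1.88 ± 0.41, limma adjusted p 0.0338). Both had all TAB levels above all sham levels. In sham the Cenpk spot was not found on days 5, 7 and 14, and the Spc25 spot on days 5 and 7. The other 3 were found on every array and did not pass. They were Cenpa, the centromeric histone (0.27 ± 0.14), Spc24, which pairs with Spc25 in the complex (0.02 ± 0.20), and Cenpe, the kinetochore kinesin. Cenpe levels were 6.21, 6.38, 5.85, 5.65 and 5.96 in TAB and 6.60, 5.74, 6.07, 5.79 and 5.89 in sham (-0.01 ± 0.17), and the sign of the Cenpe and Spc24 means changed between processing settings.

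Of the 10 kinesins and spindle proteins, 7 were measured and 4 rose. Hmmr, a spindle-pole microtubule protein, had the lowest p of all members: its levels were 7.28, 7.51, 5.60, 5.94 and 5.33 in TAB and 3.24, 3.12, 2.61, 2.80 and 3.41 in sham. It was found on every TAB and no sham array, at least 8.29-fold higher in TAB (3.30 ± 0.36, limma adjusted p 0.0121). Tpx2, which activates Aurora A on the spindle, was at 6.12, 6.41, 5.13, 4.35 and 3.35 in TAB and 2.57, 1.86, 1.96, 2.56 and 1.59 in sham. It was found on the TAB arrays of days 3, 5 and 7 and on no other, at least 11.7-fold, 12.8-fold and 2.47-fold higher on those days (2.97 ± 0.44, limma adjusted p 0.0181). The chromokinesin Kif22, found on all arrays, rose by 1.89 ± 0.39 (limma adjusted p 0.0309). Kif11, the kinesin that pushes spindle poles apart, rose by 1.82 ± 0.43 (adjusted p 0.0395), but it was found on 1 array only, TAB day 7, where the bound was 1.53-fold. The chromokinesin Kif4 (1.00 ± 0.33, limma adjusted p 0.0826) and the microtubule depolymerase Kif2c (0.56 ± 0.24, adjusted p 0.147) did not pass. Dlgap5, which stabilises kinetochore fibres, was at 2.66, 4.38, 3.67, 3.14 and 4.61 in TAB and 4.77, 5.09, 5.37, 5.51 and 3.41 in sham, under sham on all days except day 28 (-1.14 ± 0.53, limma adjusted p 0.182). Its other probe gave the opposite sign, with log2 ratios of 1.67, 1.99, 1.37, 2.24 and 0.49, so that no direction can be given for Dlgap5.

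Of the 6 cytokinesis genes, 5 were measured and 2 rose. They were the parts of the centralspindlin complex. The kinesin Kif23, whose sham spot was not found on days 5, 7 and 14, was at 8.57, 8.77, 6.86, 6.83 and 6.29 in TAB and 4.77, 4.24, 3.69, 4.25 and 5.59 in sham (2.96 ± 0.53, limma adjusted p 0.0243). Its partner Racgap1 was at 7.75, 8.14, 6.58, 6.20 and 5.94 in TAB and 5.38, 5.00, 4.74, 4.70 and 5.66 in sham, also without overlap (1.83 ± 0.39, limma adjusted p 0.0329). The Racgap1 sham spot was not found on days 7 and 14. With the mean of its probes Racgap1 had 1.23 and did not pass (limma adjusted p 0.0638). The actin-ring scaffold Anln (1.37 ± 0.37, limma adjusted p 0.0517) and the midzone bundler Prc1 (1.32 ± 0.40, adjusted p 0.0694) had every TAB level above every sham level and did not pass. Kif20a, a kinesin of the midzone, had TAB levels of 5.71, 5.44, 5.56, 5.83 and 5.87 and sham levels of 6.28, 6.30, 6.51, 6.09 and 3.59. As for Ccnb1, TAB lay under sham on days 3 to 14 and above it on day 28, where the sham spot was not found (-0.07 ± 0.49, limma adjusted p 0.936).

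**Figure D2:**
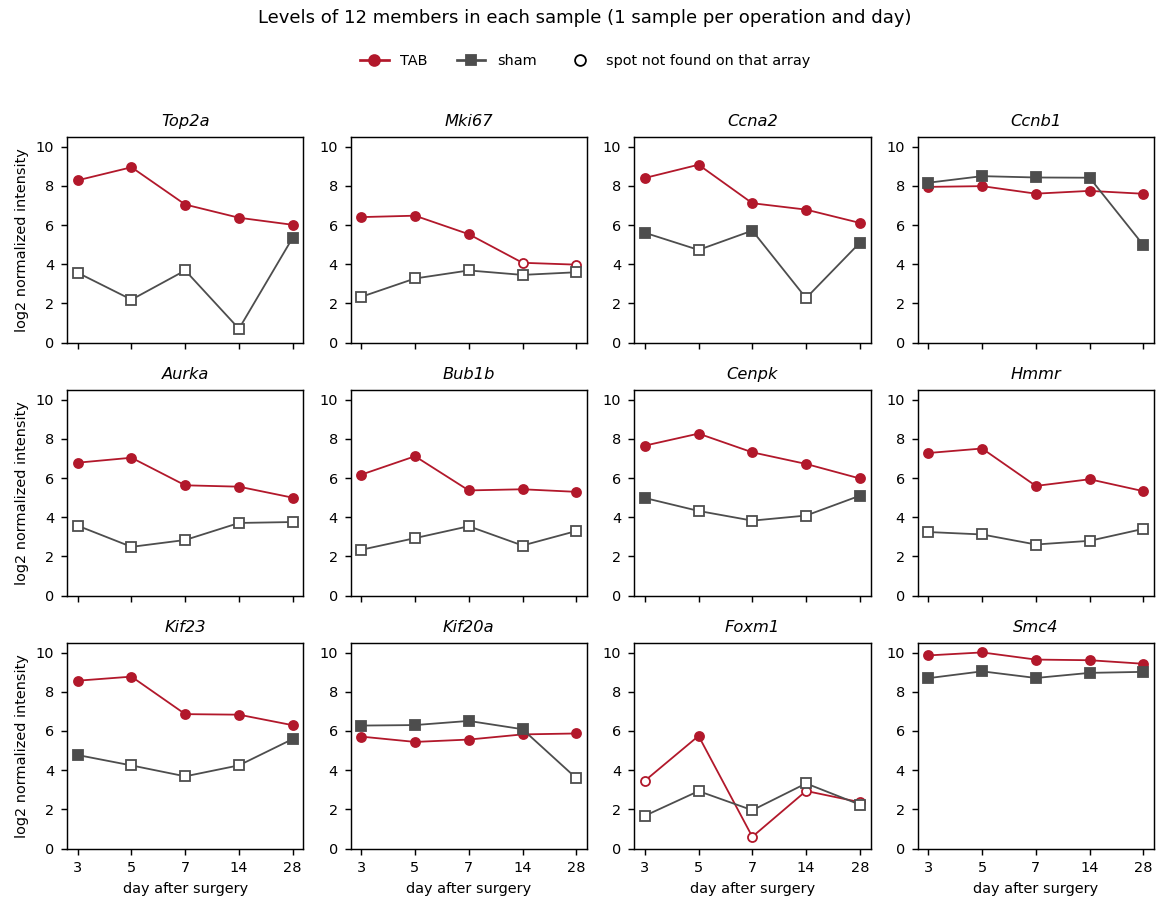
log2 normalized intensity (y axis) of 12 members in each sample by day after surgery (x axis); red circles are TAB, grey squares sham, and open symbols mark spots not found. In Top2a, Bub1b and Hmmr all TAB points lie above all sham points, while in Ccnb1 and Kif20a TAB lies under sham on days 3 to 14 and above it on day 28, where the sham level is low.

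The day course was shared by most members. The median log2 ratio over the 45 members went from 1.79 (day 3) to 2.67 (day 5), then 0.97, 0.98 and 0.58 on the later days, while over all genes it stayed between -0.06 and 0.00. The TAB level was highest on day 5 in 39 members (19.5% of all genes) and lowest on day 28 in 33 (23.4%). The ratio was largest on day 5 in 33 members, or 73.3%, against 20.0% of all genes. Under the study's rule for differentially expressed genes, a log2 ratio beyond 2 SDs of all genes' ratios that day, day 3 had 23 up-regulated members (3.1% of all genes), day 5 had 28 (4.09%), day 7 had 12 (4.08%), day 14 had 14 (3.39%) and day 28 had 6 (3.41%). With 50 added the counts on days 7 and 28 were 4 and 2, and with a log2 ratio of at least 1 as the rule those on days 7, 14 and 28 were 21, 22 and 12. Down-regulation was seen in 2 members on day 3 (2.1% of all genes), in none on the next days (day 5, 1.43%; day 7, 1.58%), in 2 on day 14 (2.27%) and in 1 at the end (2.47%). These were the probes standing for Pttg1 and Dlgap5 on days 3 and 14, and Nek2 on day 28. Up-regulation on at least 1 day held for 30 members (10.8% of all genes), and on all 5 days for Bub1b, Hmmr and Tpx2 (0.348%). Given as a bound, the day-7 log2 ratio was 1.54 for Bub1b and 1.31 for Tpx2, under that day's limit of 1.75. The Tpx2 spot was found in neither operation on days 14 and 28, so that its ratios on those days are of levels not found. On day 28 the 6 were Bub1b, Hmmr, Tpx2, Ttk, also found in neither operation that day, and Ccnb1 and Kif20a with their low sham levels.

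A difference of the TAB effect between the early and late days was not called for any member. In the test of the TAB effect on days 3, 5 and 7 against that on days 14 and 28, no member passed (0% of all genes; lowest limma adjusted p 0.393 among the members). The early effect was the larger in 38 of 45 members, with a median difference of 1.08, and 10 passed an unadjusted p of 0.05, all with the larger early effect (6.54% of all genes). Mad2l1 and Birc5, found on all 10 arrays, had early minus late differences of 1.22 ± 0.32 and 1.55 ± 0.49 (log2, SE). Kif23 and Aurka, found on all 5 TAB arrays, had 2.19 ± 0.69 and 1.97 ± 0.58. In sham, Kif23 was not found on days 5, 7 and 14, and Aurka on no day, so that these differences rest in part on levels not found. Tpx2 had a difference of 1.98 ± 0.45, Ccnb2 of 2.99 ± 0.89 and Mki67 of 2.54 ± 0.67. The spots of these last 3 were found in neither operation on the late days, and the other Mki67 probe, found on all 5 TAB arrays, gave a difference of 0.95.

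**Figure D3:**
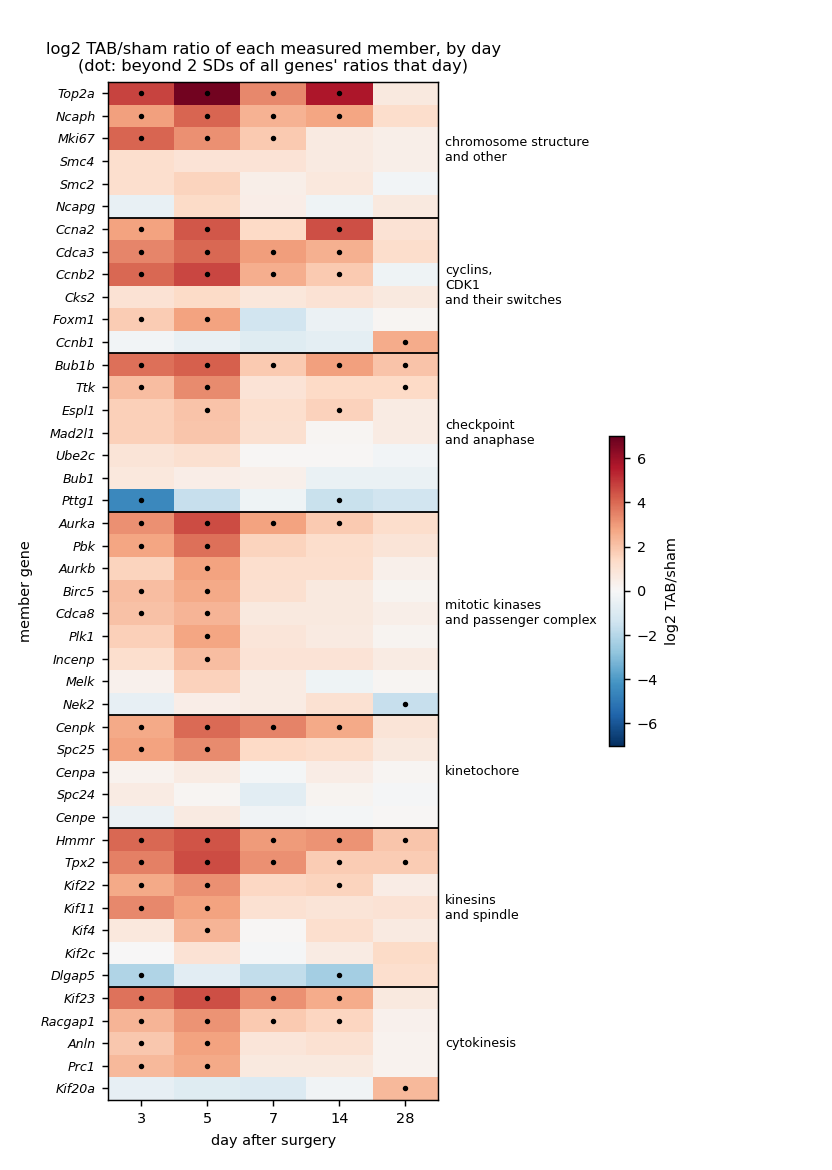
log2 TAB/sham ratio (colour) of each measured member (y axis, by role group) on each day after surgery (x axis), with a dot where the ratio lay beyond 2 SDs of all genes' ratios that day. Red is deepest on day 5, with 28 members beyond the limit, and fades to 6 on day 28 (2 with 50 added, 12 with a log2 ratio of at least 1).

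Several genes had more than 1 probe through the filter. Mki67's other probe, found on 5 TAB and 2 sham arrays, gave a mean log2 ratio of 1.95, and Birc5's, found on all arrays, 1.01. Spc24's other probe gave -0.19 and Racgap1's 0.24, with 1.03 and 1.22 on days 3 and 5 and values under 0 later. Of the probe pairs found on at least 1 array, that of Dlgap5 had opposite signs on 4 of 5 days. The other Cenpk probe was found on no array.

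**Figure D4:**
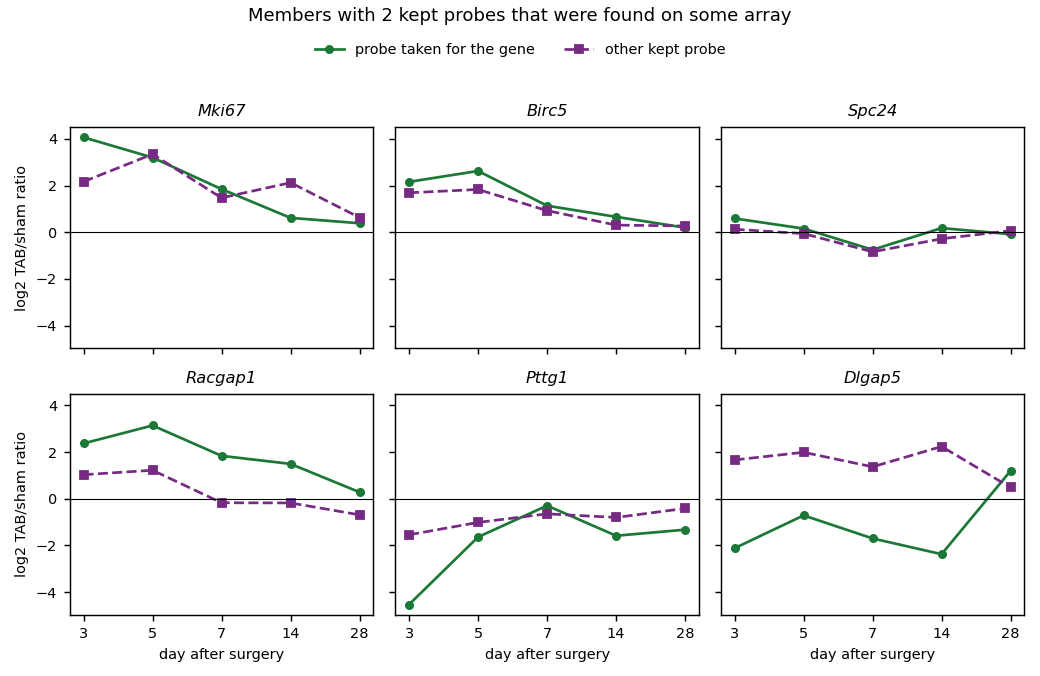
log2 TAB/sham ratio (y axis) by day after surgery (x axis) for 6 members with 2 probes through the filter, the probe taken for the gene in green and the other in purple. Both Mki67 probes and both Birc5 probes lie above 0 on every day, both Pttg1 probes lie under 0 on every day, and the Dlgap5 probes lie on opposite sides of 0 until day 28.

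Of the 10 members not measured, 8 had a probe that the filter removed. Cdc20 and Kifc1 had no probe under those symbols. The probe of Cdk1, the kinase at the centre of mitotic entry, was found on no array, with raw intensities of 8, 8, 3, 2 and 5 in TAB and 1, 1, 1, 5 and 3 in sham, and it was removed, like those of Cdc25c, Cenpf, Nuf2, Ndc80, Nusap1, Ect2 and Ckap2, because a spot fell under the intensity limit on some array. Among these, Ect2, which activates RhoA for cytokinesis, was found in TAB on day 3 (raw intensity 27) and day 5 (62) and nowhere in sham, where it reached at most 4. Ndc80 (40) and Cdc25c (55) were found on the day-5 TAB array alone. A removed probe of Bub1 was found on the TAB arrays of days 3, 5 and 7, at 35, 80 and 35, against at most 6 in sham, unlike the probe kept for that gene.

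Among related genes outside the 55, the counts and medians were as follows. Of 86 other mitotic genes 68 were measured, 14 rose and 3 fell, with a median mean log2 ratio of 0.35. The largest of those that rose were Cdkn3 (2.33 ± 0.34), Kif20b (2.21 ± 0.45), Iqgap3 (2.19 ± 0.57), Fam64a (2.13 ± 0.51), the centriole kinase Plk4 (1.89 ± 0.47) and the condensin II subunit Ncapg2 (1.82 ± 0.33), with limma adjusted p from 0.018 to 0.0488. Kif20b was found on 3 TAB arrays and Iqgap3 on 2, and neither on a sham array, so that their sham levels are of spots not found. The 3 that fell are a smaller share than the 7.87% of all genes called lower. They were Pcnt, Stil and Haus1, which fell by 0.82, 0.77 and 0.51 on the log2 scale. Of 28 DNA replication genes 23 were measured and 7 rose, with a median of 0.74. They ranged from Rpa2 (-0.32 ± 0.13, not called) to the ribonucleotide reductase subunit Rrm2, at 2.49 ± 0.42 (limma adjusted p 0.0223).

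Markers of other cells differed between the operations on the same days. Of 13 measured leukocyte markers, all found on every array, 10 rose and 1 fell, from Cd3e (-0.59 ± 0.13) to the macrophage marker Cd68 (2.01 ± 0.36). The log2 of their summed level ran from 12.55 to 13.94 in TAB, highest on day 5, and from 11.82 to 12.24 in sham. Of 8 fibroblast markers 5 rose, Col3a1 by 3.68 ± 0.48 and Dpt by 0.13 ± 0.14 (not called), with summed levels of 14.92 to 15.62 in TAB and 14.38 to 14.59 in sham. None of 8 endothelial markers was called (12.89 to 13.38 in TAB, 12.84 to 13.14 in sham). All 10 cardiomyocyte markers were found on every array, as the tissue label implies. None rose and 2 fell, Atp2a2 and Mb, which had the dimmest probes of the list. Their lowest raw intensities were 107 and 162, against at least 3048 for the other markers. The summed level of the list was 17.76 to 17.84 in TAB and 17.79 to 18.00 in sham. Of that sum 24.2% to 29.6% was the myosin light chain Myl2, saturated on 9 of the 10 arrays, so that the small range of the sum says little about these markers. None of 3 erythroid markers was called, although their sum was 8.74 to 9.70 in TAB and 8.26 to 8.55 in sham. The summed level of the members was 12.73 to 13.81 in TAB and 12.22 to 12.43 in sham. Cenpa, which was not called, made up 28.5% to 51.7% of it in TAB and 51.4% to 56.7% in sham, and without Cenpa the sum was 11.68 to 13.33 in TAB and 11.18 to 11.32 in sham. What part the makeup of the tissue has in the members' differences was not tested.

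**Figure D5:**
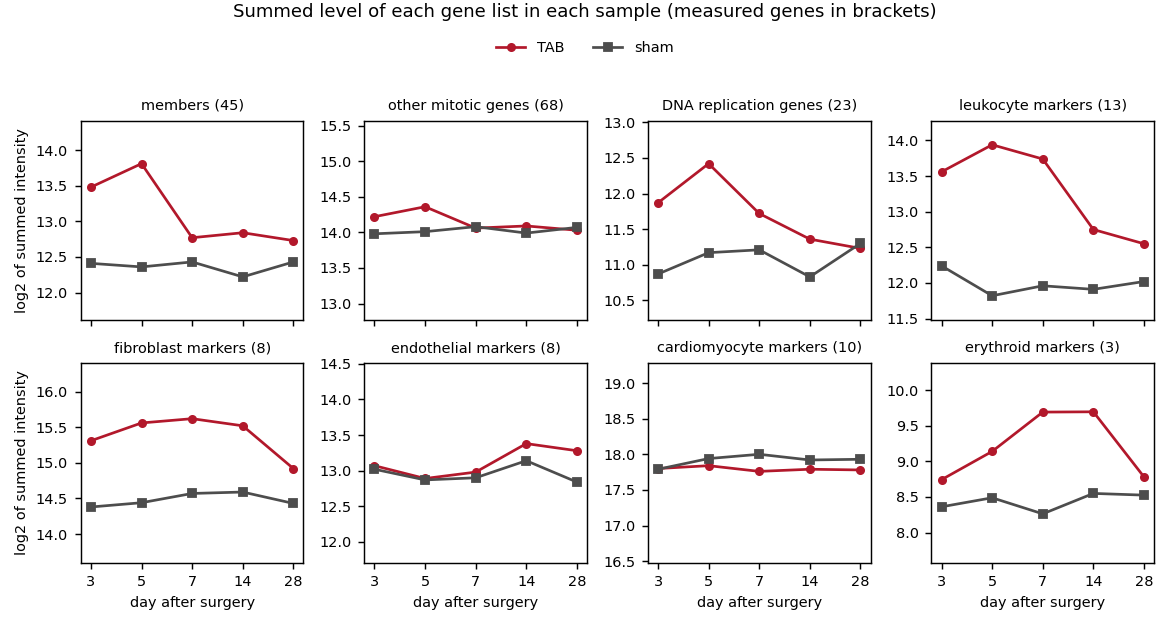
log2 of the summed normalized intensity (y axis) of each gene list in each sample by day after surgery (x axis), TAB in red and sham in grey; every panel spans the same range of log2 units around its own centre. The members are highest in TAB on day 5 (13.81), the leukocyte markers likewise (13.94), and the cardiomyocyte markers, with Myl2 saturated on 9 arrays, read from 17.76 to 18.00.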

How the data were processed

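Single-colour arrays (Mouse Whole Genome OneArray, 1 per sample) measured mRNA in 10 left ventricle samples. The authors deposited, per probe, the scanned intensity with background already subtracted, by a method not given in the sources used here, and a flag, whose negative value was read as a spot not found. As in the study's methods, all arrays were brought to the same median and a probe was dropped if any array had it under 1 after that step (19976 of 26423 probes stayed). Quantile normalization then used the rank medians over all 10 arrays before log2 was taken. The study's text takes the medians by condition, so this departs from it, and quantiles within each operation were run as an alternative. As in the study, where a gene had several probes, that whose absolute log2 TAB/sham ratios summed highest stood for it, which favours large ratios for genes with several probes; 3633 probes carried no symbol.

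The average TAB effect was tested with limma 3.58.1 in R 4.3.3 (lmFit and eBayes, day as a block, 10 samples) with Benjamini-Hochberg adjustment over 16113 genes, and the early against late difference with an added term. Because days are the replicates, p-values measure the spread of the effect between days, and whether samples share mice is not stated. Same-day TAB and sham samples deviated together with correlations from -0.016 to 0.11 only. The members, their roles and the other gene lists were chosen with earlier results of these data known. Genes given with values in every sample are the 2 largest and the smallest mean ratios of each role group, with Mki67, Top2a, Cdk1, Ccnb1 and Foxm1. Given by their mean ratio alone are the 6 largest called genes of the other mitotic genes. The same holds for the extremes of the DNA replication, leukocyte and fibroblast lists. Others are named because a count turned on them. Alternatives were other scalings, filters and probe rules, no block, a trended robust fit, leaving out each day, and, chosen after seeing the data, raising levels not found. The number of arrays and the low intensity of many members limit precision; the highest raw intensity of a member was 5043, below saturation.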

Additional observations from a re-analysis of the deposited data

Results flagged for a closer look

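Each of the 45 measured members was examined in TAB and in sham, 90 groups of 5 samples, for a sample far from the other 4 of its group. Chance flags about 1 in 20 such groups (5%), and 4 samples stood out. Ccna2 in sham was 2.27 on day 14, where its spot was not found, and 4.73 to 5.72 on the other days. Ccnb1 in sham was 4.98 on day 28 and 8.16 to 8.50 otherwise, and Kif20a in sham 3.59 on day 28 (not found) and 6.09 to 6.51 otherwise. Pttg1 in TAB was 0.78 on day 3 (not found) and 3.66 to 4.61 otherwise. Bub1 was higher in TAB on days 3, 5 and 7 and lower on days 14 and 28, with an early minus late difference of 0.98 (log2); its limma adjusted p did not pass, and 1 of its 10 spots was found.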

How the results depend on the processing

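Median scaling alone, quantiles taken within the operations or set to rank means, the brightest probe, the fit with no replicate block and the trended robust fit kept all 22 calls of a higher level, and the mean of all probes kept 21, all but Racgap1. The count was 30 with no replicate block (12.1% of all genes) and 30 with the trended robust fit (13.2%), against 9.19% of all genes as reported. It was 9 of 53 measured members when probes under 1 were set to 1 (2.3% of all genes), with 8 of the 22 calls kept. Top2a then had 4.19 (limma adjusted p 0.059), and the cause was not tested. When a probe had to be found on all 10 arrays the count was 11 of 17 (17.7% of all genes). There, 6 of the 22 were measured and kept their call. With a day left out the count was 0 to 26. The count of members lower in TAB, 0 as reported, became 1 (Pttg1) with 50 added, with probes found on every array, with the mean of all probes, with the brightest probe and with the trended robust fit, and 0 to 2 when a day was left out (Kif20a and Dlgap5 without day 28). The early against late difference called no member under any alternative. Members up-regulated became 4 on day 7 and 2 on day 28 with 50 added; 8, 10, 2, 4 and 1 on days 3, 5, 7, 14 and 28 among the 17 found on every array; and 21, 22 and 12 on days 7, 14 and 28 with a log2 ratio of at least 1. Over all genes, calls were 2242 higher and 2227 lower with 50 added, 459 and 218 with probes set to 1, 1952 and 2032 with probes found on every array, and 2130 and 2064 with the trended robust fit.

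The sign of a mean log2 ratio turned for few members. Dlgap5 became 0.83 with 50 added, 0.77 with the mean of all probes and 1.55 with the brightest probe. Ccnb1 became -0.059 with 50 added, and Spc24 -0.082 with the mean of all probes. Cenpe became 0.0119 with median scaling, 0.0057 with quantiles within operations and 0.0017 with probes found on every array. With a day left out, the range was -0.56 to 0.31 for Ccnb1 (lowest without day 28), -0.17 to 0.084 for Cenpe, -0.12 to 0.21 for Spc24, -0.66 to 0.15 for Kif20a (lowest without day 28), -0.29 to 0.38 for Nek2 and -0.0225 to 0.28 for Bub1. The cause of these turns was not tested. No depth of counting applies; spots near background limit what can be said of low members.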

Other observations

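Ccnb1, Kif20a and the probe standing for Dlgap5 shared a shape that the other members lacked: sham levels steady from day 3 to day 14 and lowest on day 28, with TAB under sham on days 3, 5, 7 and 14. They were picked for this shape, so it is given as a description, and the other Dlgap5 probe was higher in TAB on all 5 days. Sham was lowest on day 28 in 7 of the 45 members (15.6%) and in 19.6% of all 16113 genes. A stricter pattern was seen in 109 of all genes (0.676%), whose day-28 sham level stood at least 2 log2 units under the other 4 sham levels and apart from them. Pttg1 differed from these in being lower in TAB on all 5 days by both of its probes.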
